A study of Mus musculus with 4 samples.

Results

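Immediate early transcription factors are DNA-binding proteins whose genes are switched on within minutes of a stimulus, without new protein synthesis, and whose transcripts decay soon after. The 10 genes described here were chosen by name: the FOS family members Fos, Fosb, Fosl1 and Fosl2, the zinc finger factors Egr1, Egr2 and Egr3, the FOS partner Jun, the stress-induced factor Atf3 and the orphan nuclear receptor Nr4a1. They are 10 of 31131 genes on the array, read by 11 of its 39429 probes. The choice was made with earlier results of these data known. The share over all genes beside a count is therefore a description and not a test. Each gene has 1 probe except Fosl2, which has 2, and the Fos probe is printed as 10 spots.

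The study measured mouse lung on 1-colour microarrays, 1 array for each of 4 groups, and each array carried RNA pooled from 4 samples. Per the labels, the groups were Pla2g3-/- antigen-challenged, Pla2g3+/+ antigen-challenged, Pla2g3-/- control and Pla2g3+/+ control lung. Pla2g3 encodes group III secreted phospholipase A2, and the comparisons ask how the lung responds to inhaled antigen and whether loss of the enzyme alters it. For the challenge, mice received 10 µg ovalbumin with 1.3 mg alum by intraperitoneal injection on days 0 and 14, then were exposed to a 1% ovalbumin mist for 30 min daily (days 26, 27 and 28), and lungs were taken 48 h later. The labels give the same protocol for all samples, so what the control mice received, their strain, their age and the part of Pla2g3 that was deleted are not given in the sources used here. Pooling leaves no measure of the variation between mice, and in lung tissue a gene's level cannot tell fewer cells of a type from less RNA per cell.

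The values came from 2 sources that carry the same sample names, the scanner files and the authors' value table. Across spots, log2 levels in a scanner file correlated with the table column of the same name at 0.911 to 0.919. Columns of other names gave 0.911 to 0.917, so the match was not particular to a name. Scanner arrays correlated with each other at 0.985 or more. Both sources are therefore given and were normalised separately. Pla2g3 itself was higher in the arrays labelled Pla2g3-/- in both sources, 14.9-fold among challenged and 9.14-fold among control scanner arrays at its brighter probe, and 25.4-fold and 22.1-fold in the table. For that reason the terms KO-labelled and WT-labelled are used, and a direction between genotypes holds only as far as the labels do. Alveolar epithelial markers had median log2 levels of 2.29 (KO-labelled challenged), 2.42 (WT-labelled challenged), 2.26 (KO-labelled control) and 2.61 (WT-labelled control) in the scanner files, and 4.45 to 4.69 in the table. The surfactant gene Sftpc was at -0.26, -0.66, -0.71 and -1.33 on the scanner arrays in that order and at 6.92 to 7.04 in the table, Ager, a marker of flat alveolar cells, was at -5.34 to -4.84 in the scanner files and 3.60 to 3.73 in the table, and Rtkn2 was above background on 1 scanner array only. The endothelial markers were also dim in the scanner files, with median log2 levels of -4.21 in the KO-labelled challenged, -4.66 in the WT-labelled challenged, -4.98 in the KO-labelled control and -4.65 in the WT-labelled control array, and they lay between 1.62 and 1.95 in the table. Airway epithelial markers lay the other way, with median log2 levels of 4.29 to 4.38 in the scanner files and 0.87 to 1.26 in the table.

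FOS and JUN proteins pair through leucine zippers as the factor AP-1, which binds the sequence TGANTCA, while ATF3 pairs with related proteins and EGR proteins bind GC-rich sites. Transcription of these genes is driven by MAP kinase, calcium and cyclic AMP signals that act on serum response factor at CArG boxes and on CREB at cyclic AMP response elements (TGACGTCA, with the core TGACG). In lung these factors respond to stretch, oxidants, cytokines and injury, and also to the handling of tissue between removal and RNA extraction.

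Promoter windows from the RefSeq sequence table (GRCm38.p6) were searched for 7 of the 10 genes. Egr1 was not searched because its chromosome was left out, and Fosl1 and Egr3 had no window. The 250 bases before the transcript start are shown for the 4 genes whose windows held 2 or more motif matches, since such elements are the known inputs to the family. They run 5′ to 3′ in the direction of transcription, and capitals mark matches, on either strand, to the CArG box, the cyclic AMP response element or its core, the AP-1 site, the EGR site GCGNGGGCG or the TATA box (TATAAA).
Fos, chr12:85473640-85473889, plus strand: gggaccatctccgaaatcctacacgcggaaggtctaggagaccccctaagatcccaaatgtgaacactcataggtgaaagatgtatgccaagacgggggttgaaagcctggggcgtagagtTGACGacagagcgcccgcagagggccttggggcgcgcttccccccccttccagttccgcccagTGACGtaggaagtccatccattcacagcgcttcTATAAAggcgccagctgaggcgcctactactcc
Fosb, chr7:19310046-19310295, minus strand: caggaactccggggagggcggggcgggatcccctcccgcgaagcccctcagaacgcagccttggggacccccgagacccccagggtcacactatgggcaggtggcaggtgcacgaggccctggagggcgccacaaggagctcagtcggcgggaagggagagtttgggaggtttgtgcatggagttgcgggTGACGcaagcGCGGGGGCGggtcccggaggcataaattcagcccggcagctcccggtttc
Egr2, chr10:67537619-67537868, plus strand: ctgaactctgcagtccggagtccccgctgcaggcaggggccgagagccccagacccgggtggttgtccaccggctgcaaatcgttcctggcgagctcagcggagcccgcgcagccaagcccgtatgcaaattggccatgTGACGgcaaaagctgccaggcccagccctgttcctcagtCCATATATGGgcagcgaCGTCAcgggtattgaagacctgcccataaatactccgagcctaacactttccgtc
Nr4a1, chr15:101266596-101266845, plus strand: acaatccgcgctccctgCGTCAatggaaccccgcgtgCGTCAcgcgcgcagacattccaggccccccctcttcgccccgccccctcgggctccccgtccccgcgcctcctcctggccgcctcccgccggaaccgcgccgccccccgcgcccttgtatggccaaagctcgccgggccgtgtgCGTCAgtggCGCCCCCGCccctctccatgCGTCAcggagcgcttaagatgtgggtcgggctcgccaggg
The Fos window held TGACG at 124 and 61 bases before the start and TATAAA at 27 bases before it. The Fosb window held TGACG and GCGNGGGCG, at 55 and 41 bases. Egr2 has 5 windows in the table, of which that with the most matches (the lower start on a tie) is shown. It held a CArG box 62 bases before the start, with TGACG on the plus strand at 106 and on the minus strand at 50. Nr4a1 had 4 matches to TGACG on the minus strand, the nearest 35 bases from the start, and 1 to GCGNGGGCG.

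By gene, TGACG was found in 5 of the 7 genes searched (Fos, Fosb, Egr2, Atf3 and Nr4a1), against 19.8% of 27025 genes in the table. GCGNGGGCG was found in 3 (Fosb, Fosl2 and Nr4a1), against 5.33%, the CArG box in 1 (Egr2), against 1.62%, and TATAAA in 1 (Fos), against 14.3%. TGACGTCA, which contains TGACG, and TGANTCA had no match in these windows, and they occur in 1.77% and 7.82% of genes. The Jun window held none of the 6 motifs. A match is a run of letters and does not show binding, and sites farther upstream lie outside the window.

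In the scanner files the KO-labelled challenged array stood above the other 3 arrays for 9 of the 9 measured genes, an order seen in 20.8% of 25044 genes. The lowest array was the KO-labelled control for 5 of them (Fos, Fosb, Fosl1, Fosl2 and Atf3, against 24.1% of genes) and the WT-labelled challenged array for 4 (Egr1, Egr2, Jun and Nr4a1, against 17.5%). Levels below are log2 of the spot signal relative to the 75th percentile of the array. The error beside a difference is Agilent's error of the spots, which covers their reading and not the variation between mice. For a probe it was divided by the square root of its number of spots, so Fos, with 10 spots, has a smaller error. Egr3, a target of antigen receptor signalling in lymphocytes, was not well above background on any of these arrays and has no fold there (probe on chromosome 14, 70479222 to 70479281, mm9). Its spots read -8.67 and -8.39 on the KO- and WT-labelled challenged arrays and -9.27 and -8.91 on the KO- and WT-labelled controls. The plot of levels by array shows this for each gene.

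**Figure D1:**
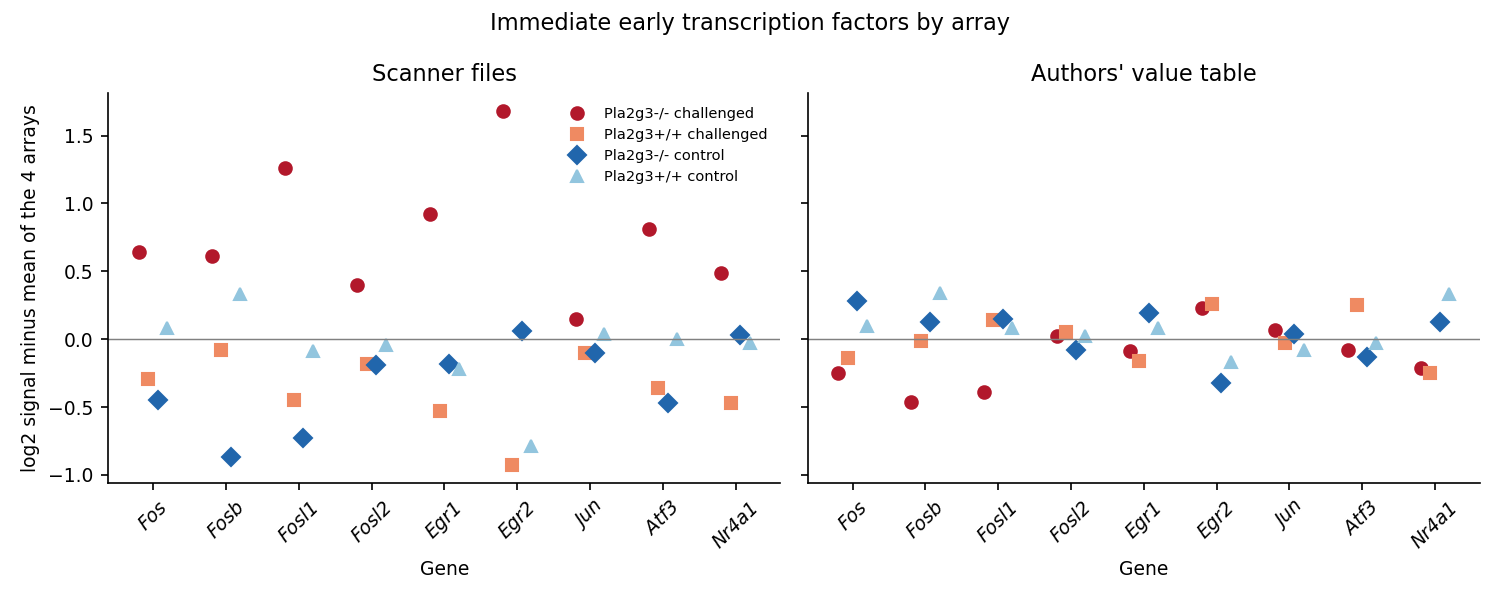
Log2 signal of 9 genes on each of the 4 arrays, centred on the gene's mean over the arrays of a source, in the scanner files (left) and the authors' value table (right), 1 array per group. In the scanner files the KO-labelled challenged array (red circles) is the highest for each gene, and in the table it is the highest for Jun alone.

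Fos, the founding member of the AP-1 family, had a scanner level of 2.07 on the KO-labelled challenged array, 1.14 on the WT-labelled challenged, 0.98 on the KO-labelled control and 1.51 on the WT-labelled control array. Its probe lies on chromosome 12 at 86817900 to 86817959 (mm9), at base 1773 of the transcript. The highest and lowest levels were thus those of the 2 KO-labelled arrays, with both WT-labelled arrays between them. The 10 spots of the probe had SDs of 0.07 (KO-labelled challenged), 0.08 (WT-labelled challenged), 0.05 (KO-labelled control) and 0.06 (WT-labelled control). Spots of the WT-labelled challenged (0.99 to 1.22) and KO-labelled control (0.88 to 1.05) arrays overlapped, while those of the other arrays stood apart.

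Taken spot by spot, Fos was higher in the KO-labelled challenged than in the KO-labelled control array by 1.04 to 1.12 (mean 1.09 ± 0.03, SD over 10 spots, 2.13-fold). In the WT-labelled pair it was lower in the challenged array at every spot, by -0.42 to -0.32 (mean -0.37 ± 0.03). The opposite signs therefore exceeded the error of reading the spots, which are repeats on 1 array and not replicate animals.

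**Figure D2:**
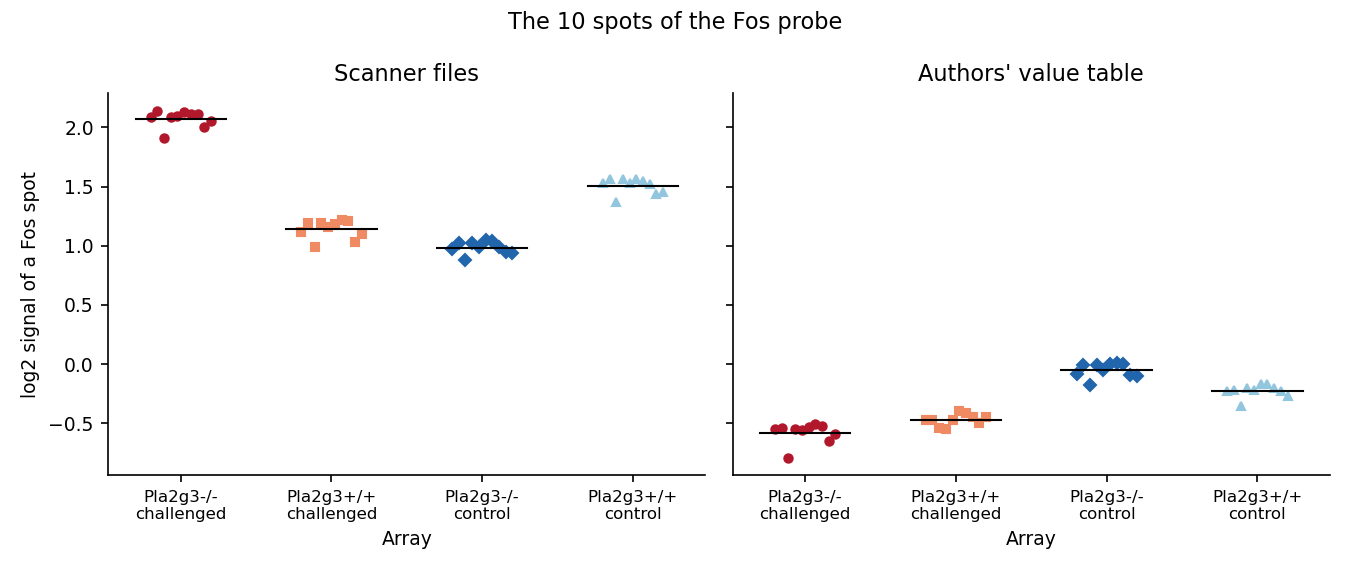
Log2 signal of each of the 10 spots of the Fos probe on each array (points) and their mean (line), in the scanner files (left) and the authors' value table (right). The spots of an array lie within a narrow band, and in the scanner files the KO-labelled challenged array lies highest (1.91 to 2.14), while in the table both challenged arrays lie below both controls.

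Fosb, which heterodimerises with JUN proteins, had -0.69 and -1.38 on the KO- and WT-labelled challenged arrays and -2.17 and -0.97 on the KO- and WT-labelled control arrays (probe on chromosome 7, 19888168 to 19888227, mm9). Fosl1, the FRA-1 protein induced in epithelial repair, had -4.24 and -5.95 on the KO- and WT-labelled challenged arrays and -6.23 and -5.59 on the KO- and WT-labelled controls (chromosome 19, 5455496 to 5455555). Both genes had their lowest level on the KO-labelled control array. The Fosl1 difference between the KO-labelled arrays depended on the background correction, being 1.99 with Agilent's own signal and 0.93 with normexp correction and quantile normalization.

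Fosl2, encoding FRA-2, spanned less. Its brighter probe, on chromosome 5 at 32460076 to 32460135, had 2.11 and 1.53 on the KO- and WT-labelled challenged arrays and 1.52 and 1.67 on the KO- and WT-labelled controls. The other probe, at 32455088 to 32455147 and base 738 of the transcript, had -5.67 and -6.07 on the challenged arrays and -6.12 and -6.05 on the controls in the same order of labels. The 2 probes gave differences of 0.59 ± 0.20 and 0.44 ± 0.24 (spot error) between the KO-labelled challenged and control arrays, both under 2-fold and under 3 spot errors.

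Egr2, a zinc finger factor known from myelination and from lymphocyte and macrophage activation, varied most between arrays. It had -1.31 on the KO-labelled challenged, -3.92 on the WT-labelled challenged, -2.93 on the KO-labelled control and -3.78 on the WT-labelled control array (probe on chromosome 10, 67004798 to 67004857). Both KO-labelled arrays lay above both WT-labelled arrays, and it was the only measured gene with that order by more than 3 spot errors in each treatment. Egr1, a growth factor-induced regulator on chromosome 18, had 1.87 and 0.42 on the KO- and WT-labelled challenged arrays and 0.77 and 0.73 on the KO- and WT-labelled controls, so that 1 array stood apart from the other 3.

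Atf3, which represses many inflammatory genes, had -0.15 and -1.32 on the KO- and WT-labelled challenged arrays and -1.43 and -0.96 on the KO- and WT-labelled controls (probe on chromosome 1, 192994547 to 192994606). Nr4a1, an orphan receptor induced by T cell receptor and inflammatory signals, had 2.42 and 1.46 on the KO- and WT-labelled challenged arrays and 1.96 and 1.90 on the KO- and WT-labelled controls (chromosome 15, 101105071 to 101105130). Jun, the principal partner of FOS proteins, had 3.03 and 2.78 on the KO- and WT-labelled challenged arrays and 2.78 and 2.92 on the KO- and WT-labelled controls (chromosome 4, 94716928 to 94716987). Jun spanned 0.25 over the 4 arrays, about the spot error of a difference (0.20), whereas Egr2 spanned 2.60.

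Between the KO-labelled arrays, challenge went with a level 2-fold or more above control for 6 of 9 genes on the scanner arrays (Fos, Fosb, Fosl1, Egr1, Egr2 and Atf3), as for 4.38% of 25537 genes (8.73% differed by that much in either direction), and all 9 were above 0, as were 42.2%. Fosl1 (1.99 ± 0.24, 3.96-fold) and Egr2 (1.62 ± 0.20, 3.07-fold) differed most, followed by Fosb (1.48 ± 0.20, 2.79-fold), Atf3 (1.28 ± 0.20, 2.43-fold) and Egr1 (1.10 ± 0.20, 2.15-fold). Fosl2, Nr4a1 (0.46 ± 0.20) and Jun (0.25 ± 0.20) were above 0 by less than 3 spot errors. The median of the 9 was 1.10, against -0.06 over all genes tested.

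Between the WT-labelled arrays the same 9 genes were all below 0, as were 54.3% of genes, from -0.44 (Nr4a1) to -0.13 (Jun and Egr2), with a median of -0.36 against -0.03 over all genes. None was 2-fold different, a rule met by 4.44% of 25881 genes. Fos alone exceeded 3 spot errors (-0.37 ± 0.06, over 10 spots). Nr4a1 (-0.44 ± 0.20) and Fosb (-0.41 ± 0.20) differed by more but were read by 1 spot each, with a larger error. Genes above 0 in the KO-labelled pair and below 0 in the WT-labelled pair made up 16.1% of 25044 genes, and those with opposite signs and responses that differed by 2-fold or more were 6 of 9 here (the same 6 genes), against 4.86%. Challenge thus went with higher levels under one genotype label and with small differences the other way under the other.

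**Figure D3:**
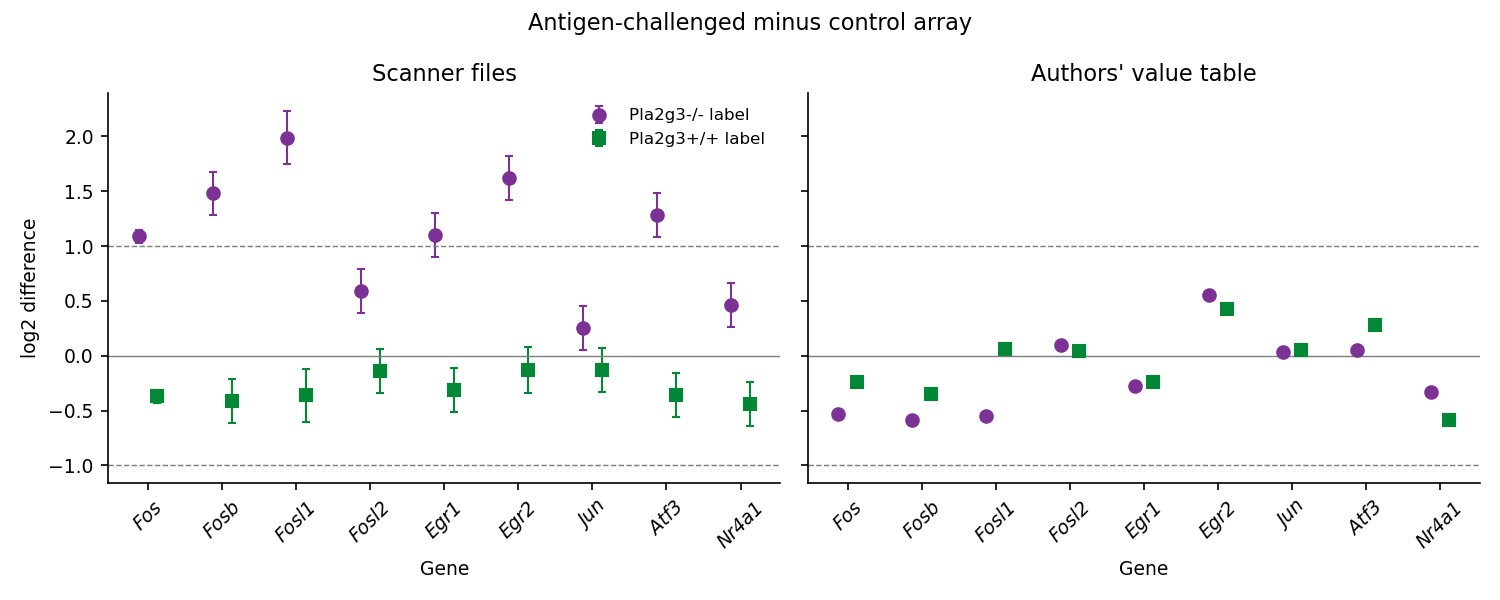
Log2 difference of challenged minus control array for 9 genes under each genotype label, in the scanner files (left, bars are Agilent's spot error of the difference) and the authors' value table (right, no error given). Dashed lines mark 2-fold; in the scanner files the KO-labelled differences run from 0.25 to 1.99 and the WT-labelled ones from -0.44 to -0.13.

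Set by genotype label, 4 of 9 genes differed by 2-fold or more upwards in the KO-labelled relative to the WT-labelled challenged scanner array, as did 4.2% of 25805 genes, and all 9 were above 0, as were 39.3%. They were Egr2 (2.60 ± 0.21, 6.07-fold), Fosl1 (1.71 ± 0.23, 3.27-fold), Egr1 (1.45 ± 0.20, 2.73-fold) and Atf3 (1.18 ± 0.20, 2.26-fold). Nr4a1 (0.96 ± 0.20) and Fos (0.93 ± 0.06, 0.89 to 0.98 over its spots) were just under 2-fold. Fosb (0.69 ± 0.20), Fosl2 (0.57 ± 0.20) and Jun (0.25 ± 0.20) differed least. The Fosl1 value was 0.88 with normexp correction. This comparison shares its KO-labelled challenged array with the KO-labelled pair above, so the 2 sets of differences are not independent.

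Among control scanner arrays, Fosb was 2.30-fold lower in the KO-labelled than in the WT-labelled array (-1.20 ± 0.20), the one gene of 9 at 2-fold, where 2.38% of 25683 genes were at least 2-fold lower. Fos was lower by less (-0.53 ± 0.06, -0.56 to -0.49 over its spots), and Egr2 was higher (0.85 ± 0.21). In all, 6 genes were below 0 (54.1% of all genes were) and 3 (Egr1, Egr2 and Nr4a1) above it, with a median of -0.15 against -0.03 over all genes.

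**Figure D4:**
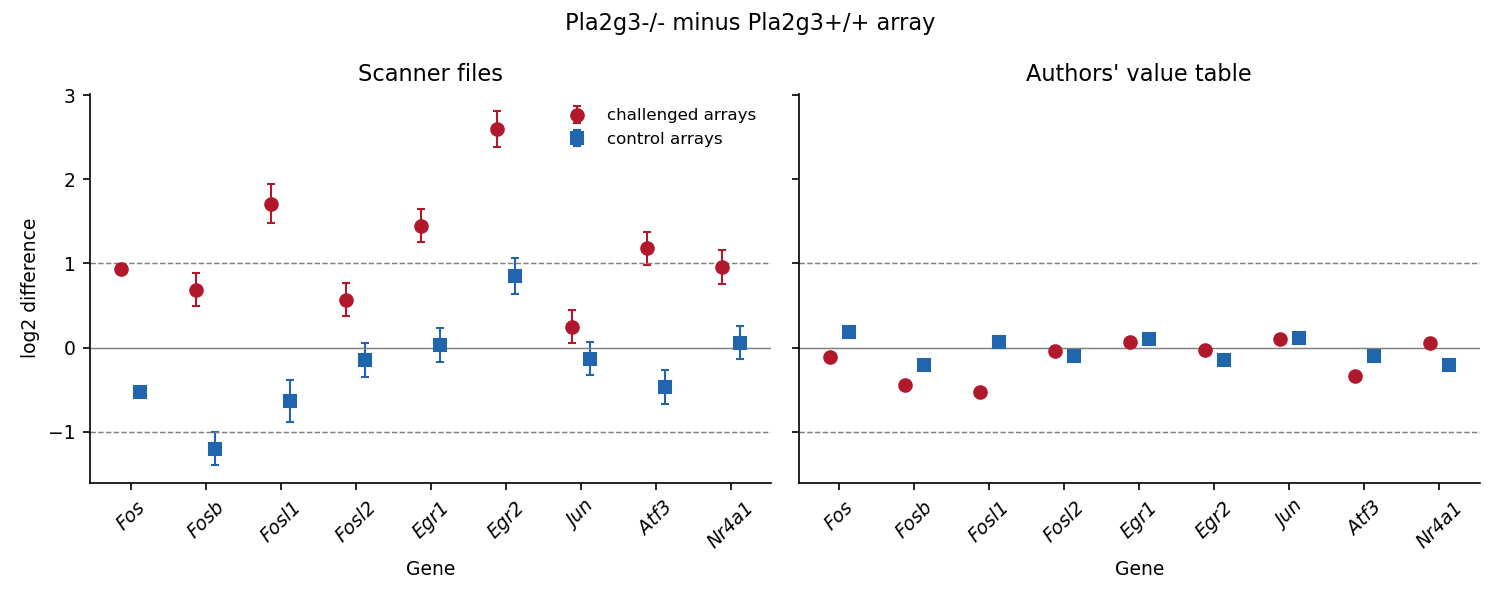
Log2 difference of KO-labelled minus WT-labelled array for 9 genes in challenged and control lung, in the scanner files (left, bars are Agilent's spot error of the difference) and the authors' value table (right, no error given). In the scanner files the challenged differences run from 0.25 to 2.60 and the control ones from -1.20 to 0.85; in the table none reaches the dashed 2-fold lines.

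The authors' value table gave smaller differences and another order of arrays. There Fos had -0.58 on the KO-labelled challenged, -0.47 on the WT-labelled challenged, -0.05 on the KO-labelled control and -0.23 on the WT-labelled control array (log2 of the deposited signal). Over its 10 spots it was lower after challenge by -0.62 to -0.47 in the KO-labelled pair and by -0.35 to -0.18 in the WT-labelled pair. Both challenged arrays thus lay below both controls at every spot.

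Fosb in the table had -4.24 and -3.79 on the KO- and WT-labelled challenged arrays and -3.65 and -3.44 on the KO- and WT-labelled controls. Nr4a1 had 2.45 and 2.41 on the challenged arrays and 2.79 and 2.99 on the controls, and Egr1 had 0.33 and 0.26 on the challenged arrays and 0.61 and 0.50 on the controls, KO-labelled first. For these 3 genes, as for Fos, both challenged arrays lay below both control arrays. Egr2 lay the other way, with -0.51 and -0.48 on the KO- and WT-labelled challenged arrays and -1.06 and -0.91 on the KO- and WT-labelled controls.

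The other table levels followed no shared order. Jun (4.43 and 4.33 on the KO- and WT-labelled challenged arrays, 4.40 and 4.28 on the controls) and the brighter Fosl2 probe (1.05 and 1.08, against 0.95 and 1.05) each spanned at most 0.15. The other Fosl2 probe had -6.39 and -6.36 on the KO- and WT-labelled challenged arrays and -6.85 and -6.67 on the controls, so it was higher on both challenged arrays. Atf3 was highest on the WT-labelled challenged array, with -1.01 and -0.68 on the KO- and WT-labelled challenged arrays and -1.06 and -0.96 on the controls. Fosl1 was lowest on the KO-labelled challenged array, with -7.24 and -6.71 on the KO- and WT-labelled challenged arrays and -6.70 and -6.77 on the controls.

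A 2-fold difference after challenge in the KO-labelled pair of the table was counted for 1 of 10 genes, Egr3, and it was downward, as for 1.36% of 25099 genes (4.63% in either direction). It was above background on the KO-labelled control array alone, at -8.30 against a background level of -8.31, so no fold is given for it. Its other table levels were -10.06 on the KO-labelled challenged, -9.13 on the WT-labelled challenged and -9.14 on the WT-labelled control array. None of 9 was 2-fold different in the WT-labelled pair, where 3.45% of 25687 genes were. The differences ran from -0.59 (Fosb) to 0.55 (Egr2) between KO-labelled arrays without Egr3, and from -0.59 (Nr4a1) to 0.43 (Egr2) between WT-labelled arrays. Below 0 in both pairs were 4 of 9 genes (Fos, Fosb, Egr1 and Nr4a1, against 28.8% of 24717 genes), above 0 in both were 4 (Fosl2, Egr2, Jun and Atf3, against 34.0%), and Fosl1 alone had opposite signs (37.2%). Opposite signs with a 2-fold difference between responses occurred for 0 of 9 (2.52%).

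By genotype label no gene reached 2-fold in the table, 0 of 9 among challenged arrays (5.79% of 25458 genes) and 0 of 10 among controls (5.14% of 25514 genes). Fosl1 (-0.53), Fosb (-0.45) and Atf3 (-0.34) were the lowest in the KO-labelled relative to the WT-labelled challenged array. Of the 6 genes counted as higher between KO-labelled scanner arrays, 4 had the opposite sign between the KO-labelled arrays of the table: Fos at -0.53, Fosb at -0.59, Fosl1 at -0.55 and Egr1 at -0.28. Egr2 and Atf3 were above 0 in both, and Atf3 only by 0.05 in the table.

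Averaged effects of challenge (over both labels) and of genotype (over both treatments) were estimated by limma across all genes, leaving 1 residual degree of freedom per gene. In the scanner files 0 of the 9 genes passed for either effect, as did 0.0% of 26365 genes, and at an unadjusted p under 0.05 the counts were 0 of 9 against 9.56% of genes for challenge and 0 of 9 against 10.7% for genotype. The member nearest to the threshold was Egr2, with a genotype effect of 1.73 ± 0.54 (SE, limma adjusted p = 0.479). Of the 10 genes tested in the table, 0 passed, as did 0.0% of 26069 genes, and 4 genes were at an unadjusted p under 0.05 for challenge, against 8.79% of genes. They were Egr2 (0.49 ± 0.08, limma adjusted p = 0.566), Fosb (-0.47 ± 0.10, limma adjusted p = 0.566), Nr4a1 (-0.46 ± 0.11, limma adjusted p = 0.566) and Egr1 (-0.26 ± 0.07, limma adjusted p = 0.568). For genotype, 0 of 10 table genes were at that level against 13.8% of genes. The residual in this model comes from how far the responses under the labels disagree, so opposite responses widen it.

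Among related genes, differences of this size were few. Of 19 measured further AP-1, ATF, EGR and NR4A genes, none was 2-fold different in either scanner challenge comparison. Over all genes 8.73% were between KO-labelled and 4.44% between WT-labelled arrays. The medians of the 19 were 0.25 and -0.13 in that order. Batf3, a dendritic cell AP-1 partner, was 0.86 higher after challenge in the KO-labelled and -0.13 in the WT-labelled scanner pair, and 1.57 and 1.00 higher in the same pairs of the table. Batf, Batf2 and Atf5 were 0.72, 0.53 and 0.53 higher in the KO-labelled scanner pair, and 0.13, 0.18 and 0.71 in the WT-labelled one. In the table Maf (0.41 and 0.20) and Atf7 (-0.64 and -0.32) were, with Batf3, among the genes with the largest averaged challenge effects, given for the KO- and then the WT-labelled pair. Egr4 was not above background in either source, nor was Nr4a3 in the table.

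The 17 upstream regulators, such as serum response factor and the MAP kinases, held no 2-fold difference in any of the 8 comparisons. Their medians between challenged and control arrays lay from -0.06 to 0.00. The largest averaged challenge effects were those of Creb1 (-0.36), Mapk3 (-0.31), Crebbp (-0.29) and Rps6ka3 (0.14) in the scanner files and of Elk3 (-0.19), Mrtfa (0.19), Mapk3 (-0.18) and Crem (-0.17) in the table.

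Among 20 feedback inhibitors, 2 were at least 2-fold higher after challenge in the KO-labelled scanner pair and 1 was lower of 19 measured there, with a median of -0.15, and 1 of 20 was higher in the WT-labelled pair, with a median of -0.21. Over all genes 4.38% were 2-fold higher and 4.35% lower in the KO-labelled pair, and 2.41% higher and 2.03% lower in the WT-labelled pair. The cytokine signalling inhibitor Socs3 was 3.10 higher in the KO-labelled and 1.06 higher in the WT-labelled scanner pair. The NF-kB inhibitor Tnfaip3 was 1.13 and 0.21 higher in the same pairs, and the MAP kinase phosphatases Dusp10 (-1.71 and -0.72) and Dusp2 (-0.83 and -0.58) were below 0. In the table none was 2-fold different after challenge, where 4.63% of all genes were in the KO-labelled and 3.45% in the WT-labelled pair. Tnfaip3 (0.46 and 0.31), Errfi1 (0.55 and 0.18), Spry1 (-0.30 and -0.33) and Dusp5 (-0.19 and -0.40) had the largest averages there.

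Of 30 other immediate early response genes, 5 were at least 2-fold higher after challenge in the KO-labelled scanner pair (median 0.22), against 4.38% of genes. In the WT-labelled pair 1 was higher and 1 lower (median -0.13), against 2.41% and 2.03% of genes. The prostaglandin synthase Ptgs2 was 2.98 higher in the KO-labelled and 0.20 higher in the WT-labelled pair, the signalling regulator Rgs1 1.97 and 0.56, and the growth arrest gene Gadd45g 2.70 and 1.09. Ccn2, a matrix-associated YAP target, was -0.59 and -1.08 in the same pairs. No gene of the list was 2-fold different in the KO-labelled pair of the table, and 1, the neuronal activity factor Npas4, in the WT-labelled pair. Npas4 was 0.95 and 1.24 higher there, Rgs1 0.58 and 0.77, the clock gene Per1 0.73 and 0.53, and Csrnp1 0.69 and 0.22, KO-labelled pair first.

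Markers of other cells differed between the same arrays. Neutrophil markers were at least 2-fold higher after challenge for 9 of 13 genes in the KO-labelled scanner pair (median 2.65), against 4.38% of genes. The WT-labelled pair had 8 of 13 neutrophil markers higher by that rule (median 1.58), against 2.41% of genes. Their summed signal was 316 on the KO-labelled challenged, 278 on the WT-labelled challenged, 232 on the KO-labelled control and 238 on the WT-labelled control array. Much of that sum was Ltf, which encodes lactoferrin, also made by airway glands, and had scanner levels of 7.40, 7.52, 7.49 and 7.47 in the same order. Without it the sums were 147 on the KO-labelled challenged, 94.3 on the WT-labelled challenged, 51.6 on the KO-labelled control and 60.8 on the WT-labelled control array. The array with the highest sum was also the highest for the immediate early factors. In the WT-labelled pair, where the neutrophil markers were also higher after challenge, all 9 measured factors were below 0. For 1 of 13 the table gave a 2-fold higher signal in each pair (3.27% of all genes in the KO-labelled and 2.36% in the WT-labelled pair), with medians of -0.04 in the KO-labelled and 0.42 in the WT-labelled pair and sums of 96.8, 100, 88.0 and 77.9 in the array order used above.

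T cell and thymocyte markers were at least 2-fold lower for 11 of 12 genes in the KO-labelled scanner pair (median -3.49), against 4.35% of genes. The WT-labelled pair had 2 of 12 of these markers lower by that rule (median -0.58), against 2.03% of genes. Their summed signal was 6.80 and 4.71 on the KO- and WT-labelled challenged arrays, and 48.5 and 6.06 on the KO- and WT-labelled controls, so the KO-labelled control array stood apart. In the table the sums were 8.10 and 12.2 on the KO- and WT-labelled challenged arrays and 7.82 and 11.8 on the controls. Macrophage markers were 2-fold higher for 3 of 9 genes in the KO-labelled pair (median 0.59), against 4.38% of genes. The WT-labelled pair had 1 of 9 macrophage markers higher (2.41% of genes) and 1 lower (2.03%), with a median of -0.07. Their summed signal was 28.4 and 15.8 on the KO- and WT-labelled challenged arrays and 20.2 and 12.3 on the KO- and WT-labelled controls. Without Chil3, the brightest of them, the sums were 15.1 and 7.67 on the challenged and 10.1 and 10.8 on the control arrays, KO-labelled first, so the WT-labelled pair turned direction. For macrophage markers in the table, 0 of 9 were 2-fold different in either pair (4.63% of all genes in the KO-labelled and 3.45% in the WT-labelled pair). Their medians there were 0.36 in the KO-labelled and 0.33 in the WT-labelled pair. The table sums were 141 and 139 on the KO- and WT-labelled challenged and 130 and 113 on the KO- and WT-labelled control arrays.

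Between genotype labels, 7 of 13 neutrophil markers (median 1.66), 7 of 12 T cell and thymocyte markers (median 1.15) and 3 of 9 macrophage markers (median 0.82) were 2-fold higher in the KO-labelled than in the WT-labelled challenged scanner array, as were 4.2% of all genes. Among control arrays 11 of 12 T cell and thymocyte markers were 2-fold higher in the KO-labelled array (median 3.87), as were 3.6% of all genes, and 2 of 13 neutrophil markers (median 0.71).

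Heat shock genes respond to warm handling of tissue. None of 11 measured was 2-fold different in the KO-labelled scanner pair (median 0.30), against 8.73% of genes. In the WT-labelled pair 1 of 11 was 2-fold lower (median 0.01), against 2.03% of genes. That gene was Hspa1a, with -0.08 and -0.86 on the KO- and WT-labelled challenged arrays and -0.53 and 1.32 on the KO- and WT-labelled controls. The summed signal of the list was 242 and 280 on the KO- and WT-labelled challenged arrays, and 208 and 260 on the KO- and WT-labelled controls. The part that neutrophils, macrophages, endothelial cells, lymphoid tissue or handling had in the levels of the immediate early factors was not tested.

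**Figure D5:**
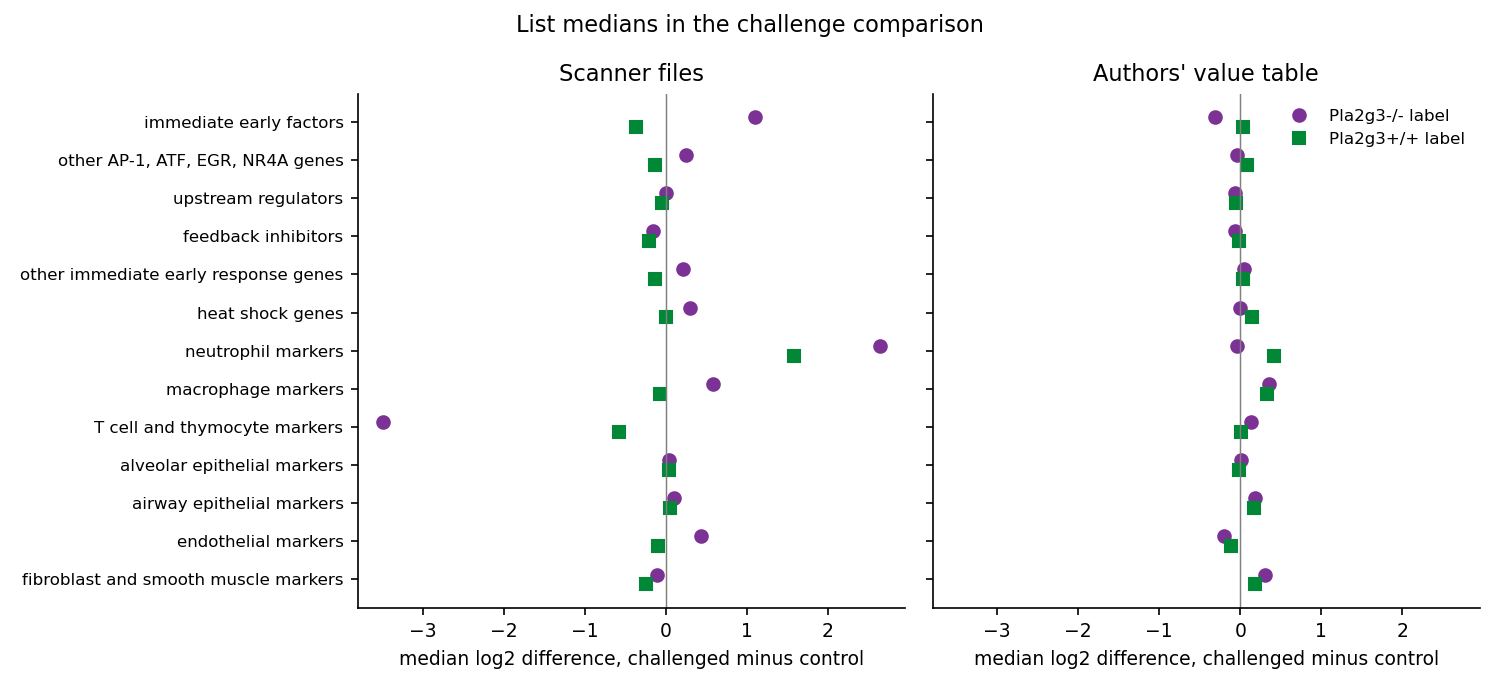
Median log2 difference of challenged minus control array for the immediate early factors and 12 further gene lists under each genotype label, in the scanner files (left) and the authors' value table (right). In the scanner files the immediate early factors lie at 1.10 (KO label) and -0.36 (WT label), neutrophil markers at 2.65 and 1.58 and T cell and thymocyte markers at -3.49 and -0.58, while the table medians all lie between -0.31 and 0.42.

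The pattern over arrays was set beside that of every other gene above background on all 8 columns of both sources (22523 genes), by the root mean square distance between centred log2 values. Nearest to the mean of the 9 immediate early factors were F420014N23Rik (0.07), 9530051G07Rik, A530095I07Rik, Zeb2 and Gm9779 (each 0.08). Zeb2, a zinc finger repressor of macrophages and mesenchymal cells, had centred scanner values of 0.63, -0.28, -0.24 and -0.11 for the KO-labelled challenged, WT-labelled challenged, KO-labelled control and WT-labelled control arrays, against 0.77, -0.37, -0.32 and -0.08 for the mean of the factors. Among the factors, Atf3 and Egr1 (0.13 each) and Fos (0.14) lay nearest to their own mean, and Egr2 lay farthest (0.52). Ordered by distance among the genes compared, Atf3 was at rank 21, Jun at 1123, Fosb at 3242 and Egr2 at 19721. The mean thus describes some factors less well, and Egr2 poorly.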

How the data were processed

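RNA from mouse lung was measured on Agilent 1-colour arrays, 1 per group. The scanner files give an intensity for every spot, read with Agilent Feature Extraction 11.5.1.1 per the file headers, detrended across the slide and not normalised between arrays, with probe positions on mm9. The authors' deposited value table holds a linear signal per spot. The sources used here do not give its making. By its values it is linear with a column's 75th percentile near 1.00 and genes not centred. Whether its columns or the scanner files hold the named samples could not be settled. The design had planned it as an alternative, and after the data were seen it was given as a source of its own. All 4 scanner arrays share 1 slide and 1 scan.

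The level of a scanner spot was its log2 intensity less that of the array's 75th percentile (over 43020 spots that are not controls), and table signals were put on the log2 scale as deposited by the authors. Each array had 44397 spots, and 20 uneven spots were left out and 0 were saturated. Spots of a probe were averaged, and the brightest probe on average stood for a gene. Of 39429 probes, 28330 were named by transcript accession and 2204 by symbol from the RefSeq table, and 8895 kept the file's name. A scanner probe was above background by Agilent's flag, and a table probe above 5 times the median of the negative controls, a rule that gave the same call as the flag for 99.2% of spots in the scanner files. Table columns of no sample numbered 0.

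With 1 array per group no p-value was computed between arrays, and 2-fold counts cover genes above background on 1 or both arrays compared. Averaged effects were fitted with limma 3.58.1 (R 4.3.3, lmFit and eBayes, additive model) with Benjamini-Hochberg adjustment over all genes at a threshold of 0.05, a step tested on simulated data. Python 3.11.15, pandas 2.3.3, numpy 2.4.6 and matplotlib 3.10.9 were used. The number of arrays limits precision.

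The genes and lists were chosen with earlier results of these data known. Named beyond the 10 are, per further list, up to 4 genes with the largest averaged challenge effect per source, and the 5 genes most alike in pattern; a gene the rule also names is not reported here. Egr4, Nr4a3, Sftpc, Ager, Rtkn2, Ltf and Chil3 were named, and sums without the brightest gene of a list added, after values were seen. Alternatives were quantile and median scaling, normexp (offset 50), averaging of all probes of a gene, rules of 1.5-fold and 3-fold, 3 spot errors, filters, and limma with a trend or robust prior.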

Additional observations from a re-analysis of the deposited data

Results flagged for a closer look

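The challenge response had opposite signs under the 2 genotype labels, with a difference of at least 2-fold between the responses, for 6 of 9 genes in the scanner files, where 4.86% of 25044 genes met the same rule. The difference (KO-labelled response minus WT-labelled response) was 2.35 for Fosl1, 1.89 for Fosb, 1.75 for Egr2, 1.64 for Atf3, 1.46 for Fos and 1.41 for Egr1 on the log2 scale. With 1 array in each group this difference was not tested. Among table genes 0 of 9 met the rule (2.52% of 24717 genes).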

How the results depend on the processing

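Under quantile, median and normexp scaling and the mean of probes, all 9 measured genes of the scanner files were above 0 in the KO-labelled challenge comparison and below 0 in the WT-labelled one. Scanner values of 2-fold or more had the same sign in 66 of 66 recomputed values and stayed at 2-fold in 64, the exceptions being Fosl1 with normexp (0.93 between KO-labelled arrays and 0.88 between challenged arrays, against 1.99 and 1.71). The table as the source instead of the scanner files turned the sign of values called at 2-fold in the scanner files, after challenge in the KO-labelled pair for Fos (-0.53), Fosb (-0.59), Fosl1 (-0.55) and Egr1 (-0.28), and between challenged arrays for Fosl1 (-0.53), Egr2 (-0.03) and Atf3 (-0.34). Among values under 2-fold it also turned Nr4a1 (-0.33) in the KO-labelled pair, and Fos (-0.11), Fosb (-0.45) and Fosl2 (-0.04) between challenged arrays. In the WT-labelled pair it turned Fosl1 (0.06), Fosl2 (0.04), Egr2 (0.43), Jun (0.05) and Atf3 (0.28), all below 0 in the scanner files. Between control arrays it turned Fos (0.18), Fosl1 (0.07), Egr2 (-0.15), Jun (0.12) and Nr4a1 (-0.21). The cause was not tested.

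In the scanner files the 6 genes of the KO-labelled challenge comparison became 2 under a 3-fold rule, and 0 of them were at 2-fold in the table, whose count of 1 is Egr3, called downward. The 4 genes between challenged arrays became 7 at 1.5-fold, 2 at 3-fold and 0 in the table. The 1 gene between control arrays became 3 at 1.5-fold, 0 at 3-fold and 0 in the table. In the table the 1 gene of the KO-labelled challenge comparison became 2 at 1.5-fold, 0 when all 4 arrays had to be above background, and 6 in the scanner files. The 0 of the WT-labelled challenge comparison became 1 at 1.5-fold. The 0 between challenged arrays became 4 in the scanner files. The 0 between control arrays became 1 with quantile normalization, 1 at 1.5-fold and 1 in the scanner files. Shares of all genes at 1.5-fold and 3-fold are not given. Counts under those rules therefore show only how the calls move with the rule. In limma 0 of these genes passed under any setting run, and the lowest adjusted p of any was 0.105 (table, challenge, variance trend). No paired analysis was possible because each group has 1 array and the labels give no replicate numbers, and for the same reason no array could be left out. Fosl1 and Egr3 are limited by low signal over background.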
